A study of Mus musculus with 12 samples.

Results

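The genes described are 9 effector cytokine genes of helper T cells, Ifng, Tnf, Lta, Il3, Csf2, Lif, Il4, Il13 and Il10, chosen by name from the 54232 genes of a count table. Naive CD4+ T cells from spleen and pLN of mice were either wild type (WT) or knocked out for Ddx55, a gene of the DEAD-box RNA helicase family (KO). RNA was taken before stimulation (0 h) and following 8 h or 24 h of contact with plate-bound anti-CD3 at 5 ug/ml plus anti-CD28 at 2.5 ug/ml, antibodies that engage the T cell receptor and its costimulator. Each of the 6 combinations of genotype and time has 2 libraries of total RNA depleted of ribosomal RNA, 12 in all. The labels give no driver for the knockout and no age, and do not tie libraries to animals, so p-values measure the spread between these libraries, which may be technical.

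Effector cytokines are secreted by helper T cells after antigen recognition, and each helper lineage is known for its own set. Ifng encodes interferon gamma, the signature product of Th1 cells, while Tnf and Lta encode tumour necrosis factor and lymphotoxin alpha, which naive cells can make early. Il3 and Csf2 encode the myeloid growth factors interleukin 3 and GM-CSF, and Lif encodes leukemia inhibitory factor. Il4 and Il13 are the signature genes of Th2 cells and are also expressed by basophils, and Il10 encodes a cytokine that restrains immune responses.

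Transcription of these genes after T cell receptor engagement is classically driven by NFAT, AP-1 and NF-kappaB at promoters and enhancers. The 250 bases upstream of the RefSeq start (build GRCm38.p6) are shown, on the gene's strand from 5′ to 3′, for the 5 members that were higher in KO than in WT cells at 24 h. Capitals mark the NFAT core GGAAA, the AP-1 motif TGANTCA and the kappaB motif on either strand.
Ifng (chr10:118440796-118441045, plus strand): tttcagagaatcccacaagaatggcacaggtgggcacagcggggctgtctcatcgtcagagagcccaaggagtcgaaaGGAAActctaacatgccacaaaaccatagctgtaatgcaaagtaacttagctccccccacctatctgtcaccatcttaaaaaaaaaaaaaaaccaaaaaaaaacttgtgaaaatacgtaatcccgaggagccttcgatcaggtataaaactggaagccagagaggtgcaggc
Csf2 (chr11:54249900-54250149, minus strand): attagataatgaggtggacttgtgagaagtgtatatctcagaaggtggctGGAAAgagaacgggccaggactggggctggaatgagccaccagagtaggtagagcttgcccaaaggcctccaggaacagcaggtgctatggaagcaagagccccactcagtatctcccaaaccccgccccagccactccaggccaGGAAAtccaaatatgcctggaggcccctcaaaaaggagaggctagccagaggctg
Lif (chr11:4257318-4257567, plus strand): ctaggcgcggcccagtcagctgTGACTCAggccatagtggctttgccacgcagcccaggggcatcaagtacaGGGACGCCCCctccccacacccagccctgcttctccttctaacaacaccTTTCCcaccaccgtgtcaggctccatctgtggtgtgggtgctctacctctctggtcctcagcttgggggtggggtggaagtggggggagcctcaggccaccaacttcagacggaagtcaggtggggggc
Il4 (chr11:53618666-53618915, minus strand): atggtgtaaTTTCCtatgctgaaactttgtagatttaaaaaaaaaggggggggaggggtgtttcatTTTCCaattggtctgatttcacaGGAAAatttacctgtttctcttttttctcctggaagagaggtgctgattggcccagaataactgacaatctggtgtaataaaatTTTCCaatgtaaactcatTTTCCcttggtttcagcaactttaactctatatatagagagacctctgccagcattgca
Lta (chr17:35205352-35205601, minus strand): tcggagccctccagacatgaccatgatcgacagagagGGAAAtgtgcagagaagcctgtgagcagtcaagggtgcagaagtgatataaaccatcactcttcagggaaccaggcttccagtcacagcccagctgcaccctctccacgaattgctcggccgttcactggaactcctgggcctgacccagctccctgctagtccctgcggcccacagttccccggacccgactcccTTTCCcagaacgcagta
The Csf2 start in RefSeq lies 232 bases upstream of the GENCODE start, so its window is farther from the gene than the others. RefSeq held promoter sequences for 8 of the 9 members, in 9 windows, of which Il4 has 2. An NFAT core was found in 8 of the 9 windows and not in the Il4 window left out above, while 55.6% of all 32851 promoter windows of this length held one. The AP-1 motif and the kappaB motif were each found in 1 of the 9 windows, that of Lif, against 6.75% and 7.25% of all windows. The GATA core AGATAA was found in 3 of the 9 windows, those of Il3, Csf2 and Il13, against 9.99% of all windows. These matches describe letters in these windows and not binding.

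The libraries held 16810375 to 19126498 gene counts. Ddx55 lay between 45.3 and 68.7 CPM, the usual count scaled to library size, here with TMM factors, in the 6 WT libraries and between 14.4 and 19.5 CPM in the 6 KO libraries. The 12 T cell identity markers summed to 4252.5 to 7132.1 CPM in all libraries. Several marker lists of other cells reached higher sums in the KO libraries: the 12 basophil and mast cell markers summed to 10.3 to 46.6 CPM over the WT libraries and 131.8 to 834.4 CPM over the KO libraries, 12 markers of CD8 T and NK cells to 30.7 to 116.2 CPM against 61.3 to 315.8 CPM, and the 8 memory-like T cell markers to more in KO than in WT at each time. Neutrophil and granulocyte progenitor markers summed to 0.433 to 55.8 CPM in WT and 16.1 to 509.3 CPM in KO libraries, eosinophil markers to 0.325 to 19.3 against 29.4 to 214.6 CPM and myeloid markers to 13.2 to 40.2 against 34.0 to 126.8 CPM. The sums of B cell markers overlapped between the genotypes at 0 h and 8 h. At 24 h they were 270.8 and 285.0 CPM in WT against 145.2 and 123.4 CPM in KO libraries. Most of each WT sum at 24 h was Ighm, at 226.9 and 243.1 CPM in WT against 86.3 and 78.6 CPM in KO libraries. Of the 4 B cell markers tested, Ighm alone was lower and none was higher, against 20.7% and 17.9% of all genes. Their median log2 fold change was 0.13, so the lower sum does not describe the list as a whole. In such bulk RNA, more cells of a type and more RNA per cell cannot be told apart.

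Of the 9 members, 7 had enough counts for the test, an edgeR quasi-likelihood fit over 15679 genes in which a gene passes at an adjusted p below 0.05. Il13 and Il10, with at most 11 counts in any library, were not tested. Before stimulation 1 of the 7, Lif, was higher in KO cells, where 4.63% of all tested genes were higher and 1.07% lower. At 8 h Ifng and Lif, 2 of the 7, were higher, against 1.9% of genes higher and 0.746% lower. At 24 h Ifng, Csf2, Lif, Il4 and Lta, 5 of the 7, were higher and none was lower, against 17.9% of genes higher and 20.7% lower. The median log2 fold change of KO against WT at 24 h was 0.93 over the 7 members, 0.62 over the 6 without Il4 and 0.02 over all genes tested, and at 8 h it was 0.27. At 0 h it was -0.02 over the 6 members for which a ratio could be given. Il4 reached the filter's cutoff in 3 libraries, and KO at 24 h was the only group in which both did, so its call at 24 h gives no support to that count.

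**Figure D1:**
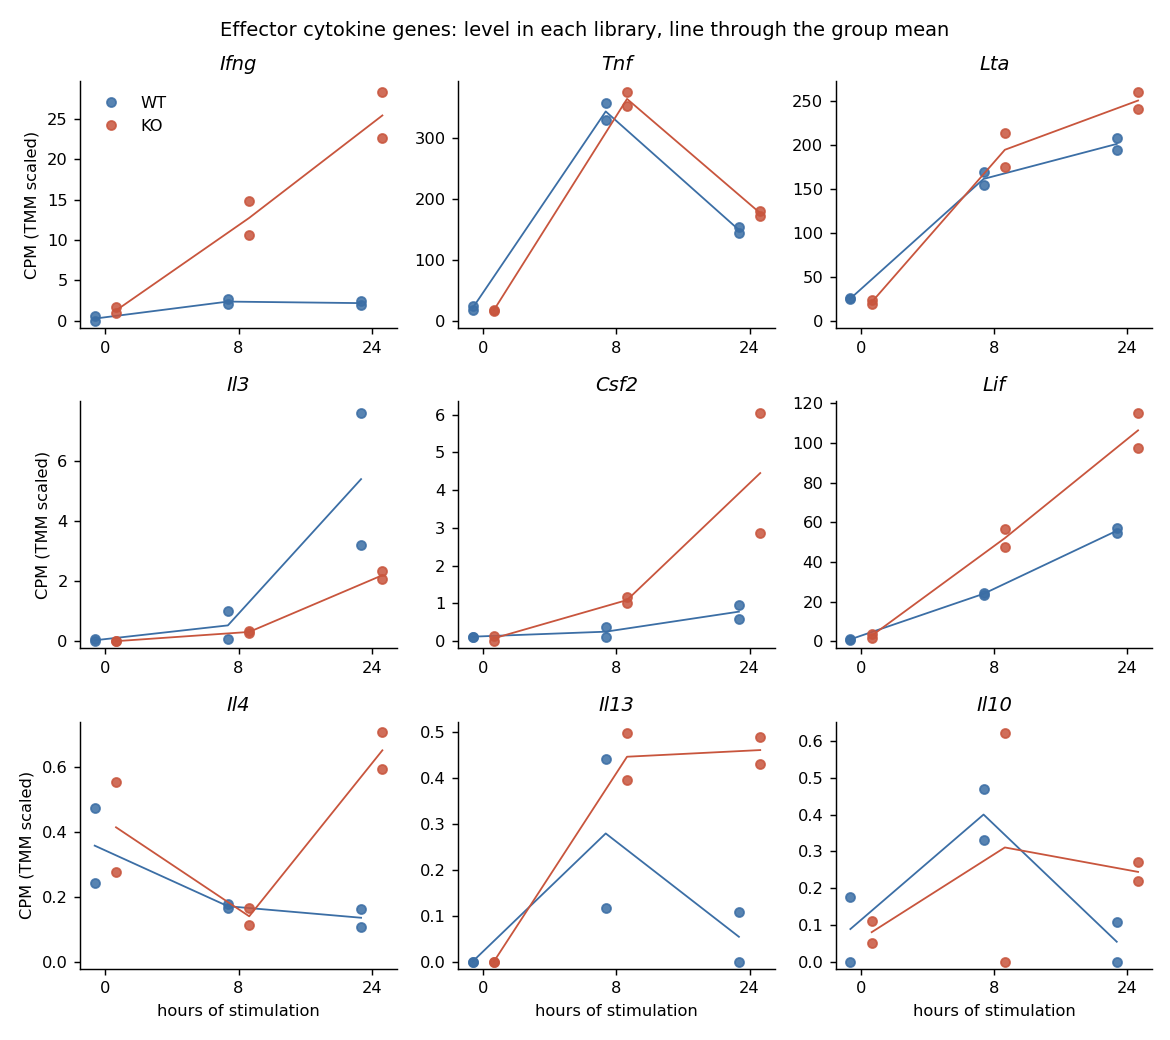
Level of each effector cytokine gene in CPM (y axis, a scale of its own per panel) against hours of stimulation (x axis); each point is 1 library, blue for WT and red for KO, and lines join the means of the 2 libraries. Ifng in KO cells reached 22.6 to 28.3 CPM at 24 h, while no WT library exceeded 2.7 CPM.

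Ifng, on chromosome 10 (chr10:118441046-118445892), was the member with the highest fold difference between the genotypes at 24 h. At 0 h the WT libraries held 9 and 0 counts and the KO libraries 30 and 18. WT cells had 2.7 and 2.05 CPM at 8 h, then 2.48 and 1.89 CPM at 24 h. KO cells had 14.9 and 10.6 CPM, then 28.3 and 22.6 CPM. Every KO library was above every WT library of its time. The log2 fold change was 3.54 ± 0.413 (SE) at 24 h (adjusted p = 4.88e-05), an 11.6-fold difference, after 2.42 ± 0.41 at 8 h (adjusted p = 0.0111). At 0 h it was 2.21 ± 0.718 and missed the threshold (adjusted p = 0.116). In WT cells Ifng rose from 0 h to 8 h by 3.12 ± 0.659 on the log2 scale, a value that rests on the 9 and 0 counts at 0 h: it was 8.44 without WT replicate 1 of 0 h and 2.15 without replicate 2, and the ratio of counts was 8.89 (95% counting interval 4.47 to 20.1). It then differed by -0.12 ± 0.456 from 8 h to 24 h (adjusted p = 0.86). In KO cells it rose by 3.32 ± 0.441 and then by a further 1.0 ± 0.355 (adjusted p = 0.0494). The difference between the genotypes in the step from 8 h to 24 h was 1.12 ± 0.578 and did not pass (adjusted p = 0.24). The last step in KO cells passed in 9 of 20 alternative analyses, and the call at 8 h was lost without either WT library of 8 h or without KO replicate 1 (adjusted p up to 0.154). The call at 24 h held in all 20. The counts of Ifng could include reads from Gm49751, an overlapping gene model on the same strand.

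Markers of CD8 T and NK cells summed to more in KO than in WT libraries at each time. The WT sums were 116.2 and 109.9 CPM at 0 h, 37.4 and 34.9 at 8 h and 33.8 and 30.7 at 24 h. The KO sums were 315.8 and 182.3 CPM, then 91.1 and 61.3, then 172.0 and 109.8. In both genotypes the sum was highest at 0 h. At 24 h 5 of the 12 genes were higher in KO and none lower, against 17.9% and 20.7% of all genes. Eomes, a transcription factor of cytotoxic and memory cells, made up much of the sum at 24 h. It stood at 95.7 and 45.6 CPM in KO against 18.8 and 12.7 CPM in WT libraries. Nkg7, a cytotoxic granule gene, stood at 5.55 and 8.28 CPM in WT against 52.6 and 45.7 CPM in KO libraries (log2 fold change 2.83 ± 0.3), and the perforin gene Prf1 (2.41 ± 0.292) and the NK receptor gene Klrd1 (2.36 ± 0.434) also passed. The NK cell receptor gene Ncr1 held 31 and 14 counts in WT and 219 and 94 in KO libraries at 0 h (2.64 ± 0.588, adjusted p = 0.0224). Klrb1c, another, held 27 and 12 against 218 and 117 counts there (2.93 ± 0.903, adjusted p = 0.12). At 8 h Ncr1 held 5 and 5 against 49 and 13 counts, and Klrb1c 9 and 0 against 48 and 11. Both genes held at most 7 counts in any library at 24 h. The part of such cells in the Ifng difference was not tested.

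Tnf and Lta lie 3344 bases apart from start to start on chromosome 17 and were by far the most abundant members per length. In WT libraries Tnf stood at 16.9 and 24.4 CPM before stimulation, 356.9 and 330.2 CPM at 8 h and 144.2 and 154.0 CPM at 24 h. In KO libraries it stood at 16.5 and 18.2 CPM, then 375.5 and 352.7 CPM, then 180.6 and 172.7 CPM. Both genotypes thus peaked at 8 h, with a rise of 4.06 ± 0.143 in WT and 4.39 ± 0.145 in KO cells on the log2 scale and a following change of -1.2 ± 0.124 and -1.04 ± 0.124. The genotypes did not differ past the threshold at any time: log2 fold changes of KO against WT were -0.25 ± 0.141, 0.08 ± 0.122 and 0.24 ± 0.123 at 0, 8 and 24 h, with adjusted p-values of 0.408, 0.846 and 0.135. At 24 h both KO libraries still lay above both WT libraries.

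Lta did not fall after 8 h. In WT libraries it stood at 26.1 and 24.4 CPM before stimulation, 168.8 and 154.1 CPM at 8 h and 194.7 and 207.9 CPM at 24 h. In KO libraries it stood at 23.6 and 18.7 CPM, then 213.9 and 175.4 CPM, then 260.8 and 240.6 CPM. The KO libraries were below the WT libraries at 0 h and above them at 8 h and 24 h. Only the 24 h contrast passed, at 0.32 ± 0.116 (adjusted p = 0.0424), a 1.25-fold difference, after -0.26 ± 0.13 at 0 h and 0.27 ± 0.116 at 8 h (adjusted p = 0.325 and 0.291). It passed in 10 of 20 alternatives and was lost with RLE size factors (adjusted p = 0.0636), in DESeq2 (adjusted p = 0.0672) and without any single library of 24 h (adjusted p = 0.0616 to 0.202). From 0 h to 24 h the KO effect on Lta changed by 0.58 ± 0.174 (adjusted p = 0.0238). Lta was the only 1 of the 7 members to pass there, where 11.9% of all genes changed upward and 14.8% downward. No member passed for the step between 0 h and 8 h, with 0.261% of genes up and 0.733% down, or between 8 h and 24 h, with 5.49% up and 8.96% down. Tnf changed by 0.49 ± 0.188 from 0 h to 24 h (adjusted p = 0.0663).

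**Figure D2:**
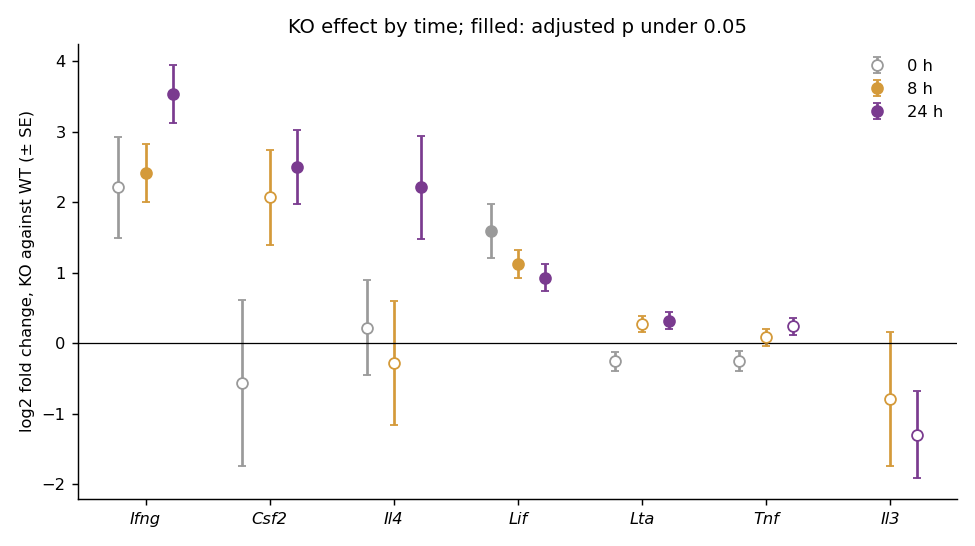
Log2 fold change of KO against WT (y axis, ± SE) for the 7 tested members (x axis) at 0 h, 8 h and 24 h; filled points passed at an adjusted p below 0.05, and Il3 at 0 h is left out because only 1 count was found. Ifng had the highest value at 24 h, 3.54, and Il3 the lowest, -1.3.

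Il3 and Csf2 lie next to each other on chromosome 11, with starts 17610 bases apart and no protein-coding gene between them. Csf2 held 2 and 2 counts in WT and 0 and 3 in KO cells at 0 h, then 7 and 2 against 18 and 21 at 8 h. At 24 h the WT libraries stood at 0.97 and 0.595 CPM (18 and 11 counts) and the KO libraries at 6.05 and 2.86 CPM (111 and 53 counts). The KO libraries lay above the WT libraries at 8 h and 24 h, and those of 24 h differed from each other more than 2-fold. The KO effect was 2.5 ± 0.527 on the log2 scale at 24 h (adjusted p = 0.00168), after 2.07 ± 0.674 at 8 h (adjusted p = 0.137). The later call passed in all 20 alternatives, with its lowest value, 1.87, and its highest adjusted p, 0.0498, without KO replicate 1 of 24 h. Csf2 rose from 0 h to 8 h in KO cells, with 39 counts after 3, a ratio of 13.8 (95% counting interval 4.4 to 69.9), and by a further 2.03 ± 0.509 on the log2 scale to 24 h, which was lost without KO replicate 1 of 24 h (1.38, adjusted p = 0.15) or of 8 h (1.93, adjusted p = 0.0511). In WT cells its steps were 1.05 ± 0.964 (adjusted p = 0.361) and 1.59 ± 0.697 (adjusted p = 0.079). Between 0 h and 24 h the KO effect moved by 3.06 ± 1.37 (adjusted p = 0.116). Csf2 overlaps Gm12223, a gene model on the opposite strand, and the labels do not say whether counting used strand.

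Il3 was the one tested member with a lower mean in KO than in WT cells at 24 h. At 0 h it held 1 count in a single WT library, and at 8 h 18 and 1 counts in WT and 6 and 5 in KO cells. At 24 h the WT libraries stood at 7.6 and 3.19 CPM (141 and 59 counts) and the KO libraries at 2.07 and 2.32 CPM (38 and 43 counts). Both KO libraries were below both WT libraries at 24 h, but the WT libraries also differed more than 2-fold from each other, and the log2 fold change of -1.3 ± 0.619 did not pass (adjusted p = 0.127). From 8 h to 24 h Il3 rose in both genotypes, by 3.32 ± 0.728 in WT and 2.81 ± 0.816 in KO cells, the latter in 14 of 20 alternatives and not without any single KO library of 8 h or 24 h (adjusted p = 0.0745 to 0.137). From 0 h to 8 h it passed as higher in both, at 18.1 times the level in WT (95% counting interval 2.88 to 752.2) and at least 3.9-fold in KO cells against a limit of 3 counts. In WT that rise rests on replicate 1 of 8 h: without it the log2 change was 0.84 (adjusted p = 0.736). The KO call of this step passed in 9 of 19 alternatives.

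Lif, on chromosome 11 (chr11:4257557-4272514), was higher in KO cells at every time. In WT libraries it stood at 1.24 and 0.602 CPM before stimulation, 23.4 and 24.4 CPM at 8 h and 54.5 and 56.9 CPM at 24 h. In KO libraries it stood at 1.82 and 3.71 CPM, then 47.3 and 56.7 CPM, then 115.2 and 97.5 CPM. The groups did not overlap at any time. Log2 fold changes were 1.59 ± 0.384, 1.12 ± 0.198 and 0.93 ± 0.19 at 0, 8 and 24 h, with adjusted p-values of 0.0335, 0.0126 and 0.00234. The call at 24 h passed in all 20 alternatives and that at 8 h in 17, with losses without either WT library or KO replicate 2 of 8 h (adjusted p = 0.122 to 0.165). The call at 0 h passed in 12 and fell to 0.97 (adjusted p = 0.128) without KO replicate 2 of 0 h and to 1.17 (adjusted p = 0.236) without WT replicate 2. Lif rose in both genotypes in both steps, by 4.68 ± 0.304 and 1.22 ± 0.198 in WT and by 4.22 ± 0.247 and 1.03 ± 0.191 in KO cells.

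Il4 and Il13, on chromosome 11 with starts 16033 bases apart, were near the limit of detection. Il4 held 8 and 4 counts in WT and 5 and 11 in KO cells at 0 h, 3 and 3 against 2 and 3 at 8 h, and 3 and 2 against 13 and 11 at 24 h. The groups overlapped at 0 h and 8 h and were apart at 24 h, where the log2 fold change was 2.21 ± 0.735 (adjusted p = 0.0273). This call passed in 11 of 19 alternatives, and DESeq2, the fit without a filter on low counts and leaving out any single library of 24 h were among those in which it was lost (adjusted p up to 0.163). In KO cells Il4 rose from 8 h to 24 h by 2.17 ± 0.736 (adjusted p = 0.0334), which passed in 7 of 18 alternatives. Between 8 h and 24 h the KO effect moved by 2.49 ± 1.17 (adjusted p = 0.183).

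Il13 held no count in any library at 0 h, which allows up to 0.0894 CPM (WT) or 0.0787 CPM (KO) for 3 counts per group. At 8 h it held 8 and 2 counts in WT and 7 and 9 in KO cells, and at 24 h 0 and 2 in WT and 9 and 8 in KO cells. The ratio of KO to WT at 24 h was 8.53 (95% counting interval 2.02 to 76.1), and without the filter on low counts the adjusted p was 0.0658. Il10 held 0 to 11 counts in all libraries: 3 and 0 in WT and 2 and 1 in KO cells at 0 h, 6 and 8 against 11 and 0 at 8 h, and 2 and 0 against 4 and 5 at 24 h. Its ratio of KO to WT at 24 h was 4.52 (95% counting interval 0.935 to 43.0). These intervals cover counting error only.

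The sum of basophil and mast cell markers was higher in the KO libraries at each time, also at 24 h, where Il4 passed and Il13 had more counts in KO than in WT cells. At 24 h the 12 markers summed to 11.3 and 10.3 CPM in WT libraries, to 189.4 CPM in KO replicate 1 and 675.3 CPM in KO replicate 2. Of the 11 tested genes 10 were higher in KO and none lower, against 17.9% and 20.7% of all genes. Fewer of the 11 passed as higher before, 2 at 0 h and 1 at 8 h, against 4.63% and 1.9% of all genes. None was lower at these times, against 1.07% and 0.746%. Mcpt8, a basophil protease, held 30 and 35 counts in WT and 1047 and 4184 in KO cells. Il4 held 13 and 11 counts in KO replicates 1 and 2 at 24 h, and Il13 held 9 and 8, counts too low to compare the 2 replicates. At 0 h the sum was already 321.3 and 834.4 CPM in KO against 46.6 and 24.8 CPM in WT cells. Il13 was then at 0 in all 4 libraries, and Il4 held 8 and 4 counts in WT and 5 and 11 in KO libraries. These counts too are too low to compare the replicates. The part of basophils in the Il4 and Il13 differences was not tested.

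**Figure D3:**
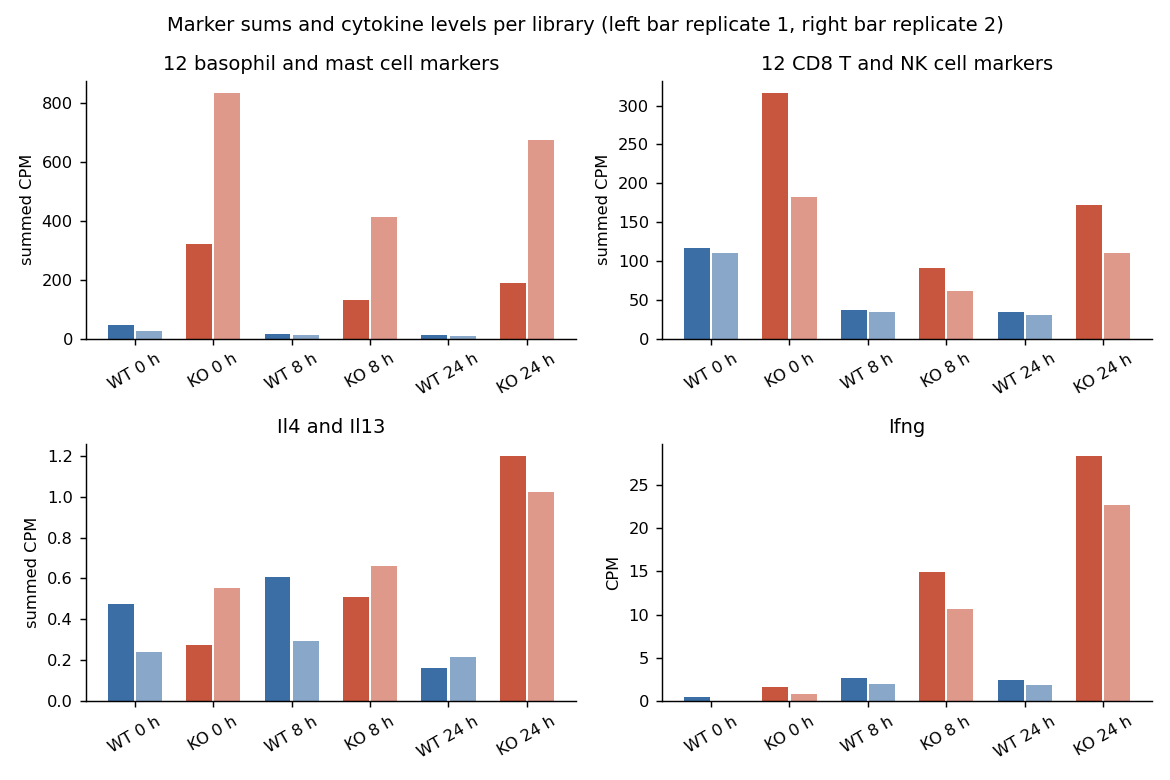
Summed CPM of 12 basophil and mast cell markers and 12 markers of CD8 T and NK cells (top), and CPM of Il4 plus Il13 and of Ifng (bottom), in each of the 12 libraries (x axis, by group; left bar replicate 1, right bar replicate 2; blue WT, red KO). At 24 h the basophil and mast cell sum was 189.4 CPM in KO replicate 1 and 675.3 CPM in replicate 2.

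Over the course of stimulation, 5 of the 7 members were higher at 8 h than at 0 h in WT cells (Ifng, Tnf, Lta, Il3 and Lif) and none was lower, against 28.3% of all genes higher and 33.6% lower. In KO cells 6 were higher (Csf2 besides these 5) and none was lower, against 28.6% and 32.9%. From 8 h to 24 h, 3 members were higher in WT cells (Lta, Il3 and Lif) and 1, Tnf, was lower, against 24.0% and 19.3% of all genes. In KO cells 6 were higher and 1, Tnf, was lower, against 18.9% and 15.6%. These 6 include Il4, which the filter kept through KO libraries and whose call passed in 7 of 18 alternatives. Il3, counted in both genotypes, reached the filter's cutoff in both libraries of a group only at 24 h. The calls of Il4 and Il3 in this step thus give no support to these counts. The median log2 change of the 7 members was 3.12 in WT and 3.32 in KO cells for the first step, with Il3 in KO cells at its lower bound, and 0.32 and 1.03 for the second. Over all genes these medians were -0.15, -0.1, 0.0 and 0.02. Lta rose least in the second step, by 0.32 ± 0.116 in WT (adjusted p = 0.0382) and 0.37 ± 0.116 in KO cells (adjusted p = 0.0241). The WT call passed in 12 of 20 alternatives and was lost with RLE size factors, in DESeq2 and without any single library of WT 8 h, WT 24 h or KO 24 h (adjusted p = 0.0563 to 0.232). The KO call passed in 15 of 20, with losses without KO replicate 2 of 8 h or either KO library of 24 h among them (adjusted p up to 0.217).

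Scaled to exon length, Lta and Tnf led in every group. At 24 h the order in WT cells was Lta at 145.6 ± 6.74 CPM per kb (SD, n = 2), Tnf at 91.0 ± 4.21, Lif at 12.8 ± 0.393, Il3 at 8.58 ± 4.95, Ifng at 1.69 ± 0.319 and Csf2 at 0.978 ± 0.331. Il4, Il13 and Il10 followed at 0.11 or less, and their libraries overlapped. In KO cells Ifng, at 19.7 ± 3.1 CPM per kb, stood next after Lif at 24.4 ± 2.86 and ahead of Csf2 at 5.56 ± 2.82 and Il3 at 3.49 ± 0.279, and the libraries of Csf2 and Il3 overlapped. Together Tnf and Lta made up 89.1% and 92.2% of the summed level per kb of the 9 members in the WT libraries of 24 h and 83.2% and 85.3% in the KO libraries.

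**Figure D4:**
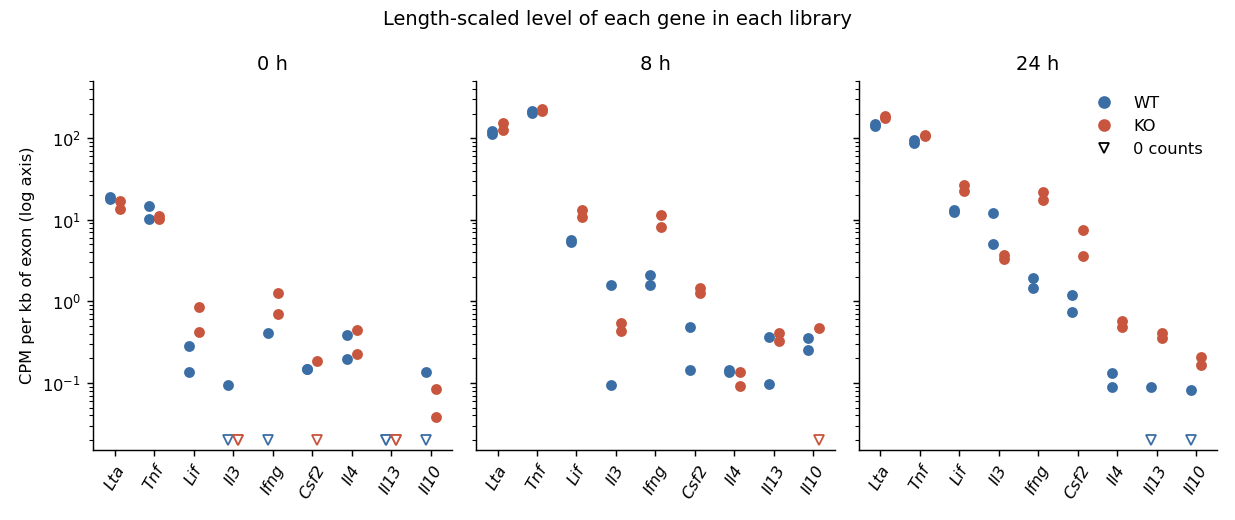
CPM per kb of exon (y axis, log scale) of each member in each library at 0 h, 8 h and 24 h, blue for WT and red for KO; open triangles at the bottom mark libraries with 0 counts. Lta and Tnf lie above all other members at each time, and at 24 h Ifng lies between 17.5 and 21.9 in KO and between 1.46 and 1.91 in WT cells.

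The receptors through which these cytokines act were measured too. At 24 h 12 of the 14 tested receptor genes were higher in KO cells and none was lower, where 17.9% of all tested genes were higher and 20.7% lower, with a median log2 fold change of 0.73 against 0.02 over all genes. None passed at 8 h, where 1.9% of all genes were higher and 0.746% lower. At 0 h Ifngr1 (0.78 ± 0.122), Csf2ra (1.39 ± 0.191) and Ltbr (2.51 ± 0.47) were higher and Il6st (-0.48 ± 0.118) was lower. Of all genes 4.63% were higher and 1.07% lower there. Tnfrsf1b, the second TNF receptor, stood at 103.5 ± 3.77 CPM (SD, n = 2) in WT against 214.2 ± 7.58 CPM in KO cells by 24 h (log2 fold change 1.05 ± 0.104, SE). Il4ra, which serves IL-4 and IL-13, stood at 167.5 ± 3.83 against 278.3 ± 2.95 CPM, and Il10ra at 6.56 ± 0.475 against 15.1 ± 2.56 CPM. Both Ifngr1 and Ifngr2, which form the interferon gamma receptor, passed at 24 h, with log2 fold changes of 0.47 ± 0.13 and 0.73 ± 0.124. Csf2rb, the shared beta chain for IL-3 and GM-CSF, held 36 and 22 counts in WT and 621 and 2253 in KO replicates 1 and 2 at 24 h. Csf2rb2 held 23 and 22 counts in WT and 496 and 1985 in KO replicates 1 and 2. The KO replicates thus differed widely for both genes. The part of other cell types in these receptor differences was not tested. The first TNF receptor Tnfrsf1a (0.16 ± 0.132) and the LIF co-receptor Il6st (0.05 ± 0.12) were the tested receptors that did not pass at 24 h.

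Among 24 transcription factors known to act at the cytokine loci, 17 were higher and 1 lower in KO cells at 24 h, beside 17.9% and 20.7% of all genes, with a median log2 fold change of 0.57 against 0.02 over all genes. Higher at 8 h were 2 of them, beside 1.9% of genes, and at 0 h 1, beside 4.63%. Gata3, the Th2 regulator that acts at the Il4 and Il13 genes, stood at 11.1 ± 0.914 CPM in WT against 39.5 ± 10.1 CPM in KO cells at 24 h, a log2 fold change of 1.83 ± 0.184. Stat6, which relays IL-4 signals, was higher in KO cells at 455.1 ± 40.5 against 266.1 ± 0.33 CPM, and Nfkb1, an NF-kappaB subunit, at 1487.6 ± 118.5 against 918.6 ± 21.3 CPM. Tbx21, the Th1 regulator that acts at Ifng, was higher in KO cells at 0 h (1.41 ± 0.247) and 8 h (1.14 ± 0.192) but did not pass at 24 h (0.22 ± 0.171, adjusted p = 0.351), and Stat4 stood at -0.04 ± 0.206.

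Of 12 regulators of cytokine mRNA decay, which act on AU-rich or stem-loop elements in such messages, 3 were higher and 5 lower in KO cells at 24 h, with a median log2 fold change of 0.04, where 17.9% of all genes were higher and 20.7% lower. The lower ones included Khsrp (402.4 ± 11.3 CPM in WT against 256.2 ± 4.24 CPM in KO cells), Hnrnpd (487.7 ± 28.7 against 348.7 ± 23.2 CPM) and Tial1 (131.9 ± 4.29 against 93.4 ± 1.77 CPM). Zc3h12a, which encodes the ribonuclease Regnase-1, was higher, with a log2 fold change of 0.62 ± 0.211 (adjusted p = 0.0402).

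Of 13 other helper T cell cytokine genes, 10 were tested and 7 were higher in KO cells at 24 h, none lower, with a median log2 fold change of 0.91, against shares of 17.9% higher and 20.7% lower over all genes. Il2, the growth factor of activated T cells, did not pass, at 177.2 ± 10.3 CPM in WT against 166.2 ± 48.7 CPM in KO cells. Il22, a neighbour of Ifng, held 3 counts in WT and 59 in KO cells at 24 h and was 1 of the 7. With at most 3 counts in any WT library, it passed the filter only through KO libraries. Its call gives no support to the count of 7, and the median includes it. Tnfsf11, which encodes RANKL, stood at 122.1 ± 11.6 against 232.6 ± 36.6 CPM. Osm, a relative and neighbour of Lif, stood at 13.5 ± 0.0821 against 25.1 ± 0.221 CPM.

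The genes next to the members' loci did not share one direction. Of 18 tested, 6 were higher and 3 lower in KO cells at 24 h, with a median log2 fold change of 0.34, and 17.9% and 20.7% of all genes were. The 6 include Il22, which the filter kept only through KO libraries. Near Il4 and Il13, Rad50, a DNA repair gene whose locus holds the Th2 control region, was lower (-0.78 ± 0.131), and Irf1, an interferon-induced transcription factor, was higher (0.58 ± 0.0978). Acsl6, beside Il3, was lower, at 5.1 ± 2.08 CPM in WT against 0.896 ± 0.581 CPM in KO cells. Near Ifng, Mdm1 was lower (-1.43 ± 0.209). Ltb, beside Tnf and Lta, was higher at 0.35 ± 0.106, and Mapkapk2, near Il10, at 0.46 ± 0.0931.

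Across the 12 libraries, log2 CPM of Lta went with that of Lif (r = 0.95) and Tnf (r = 0.93), and that of Ifng with Lif (r = 0.86) and Csf2 (r = 0.81), while Il4 went with no other member above r = 0.23. Among 9271 genes with a mean of at least 5 CPM, those most like Ifng were Plk2 (r = 0.978), Cdkn1a (r = 0.963) and Pmaip1 (r = 0.958). Those most like Tnf were Sh3rf1, Fitm2 and Sde2 (r = 0.997 to 0.998), and those most like Lta were Icos, Mrpl47 and Wnt10b (r = 0.993 to 0.995). Lif was most like Tex15, Stx11 and Mdfic (r = 0.982 to 0.989), Csf2 most like Nfyb, Fscn1 and Mex3c (r = 0.946 to 0.969), Il3 most like Mrps34, Kctd17 and Zfp239 (r = 0.954 to 0.97) and Il4 most like Yy1, Stam and Cyth3 (r = 0.919 to 0.946). These correlations are descriptions over 12 libraries that share a genotype and a time course.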

How the data were processed

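Stranded libraries of ribosome-depleted RNA were prepared and sequenced as paired reads, per the labels' protocols. The submitters' processing notes name fastp 0.12.4, STAR 2.7.1a and build mm10. The counting tool, strand setting and annotation were not given in these sources. The authors deposited whole-number counts per gene, which were used as deposited. A second deposited table, of transposable elements, was not used. Symbols, coordinates and exon lengths came from GENCODE annotation of GRCm38.

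All 12 libraries were fitted together in edgeR 4.0.16 (R 4.3.3; TMM factors, one mean per group, filterByExpr with a minimum count of 10 and total of 15, robust quasi-likelihood F-tests, two-sided), with Benjamini-Hochberg adjustment over 15679 genes. The SE is the absolute log2 fold change divided by the square root of F. Levels are CPM, also per kb of exon. Limits for 0 counts use 3 counts over a group, and counting intervals are exact at 95%. The scripts were tested on simulated data. The alternatives tried were DESeq2 1.42.0, RLE size factors, a CPM filter, no filter, a replicate block, each library left out, the KO libraries of 1 number left out, and only the groups compared.

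All 9 members are named. From each other list, up to 3 genes that passed at 24 h with the smallest p are named, with receptors and neighbours a member's account needs. Like patterns are the 3 genes of highest Pearson r of log2 CPM (prior count 2). Ncr1, Klrb1c, Mcpt8, Eomes and the other genes outside this rule were picked after their values were seen. The members and lists were chosen with earlier results of these data known.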

Additional observations from a re-analysis of the deposited data

Results flagged for a closer look

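The KO effect on Lta changed by 0.58 on the log2 scale from 0 h to 24 h in the test of that difference (SE 0.174, adjusted p = 0.0238). Lta was the only 1 of the 7 members to pass, where 11.9% of all genes changed upward and 14.8% downward. KO against WT did not pass at 0 h (adjusted p = 0.325), and its call at 24 h was lost with RLE size factors and in DESeq2. Both KO libraries were below both WT libraries at 0 h (23.6 and 18.7 against 26.1 and 24.4 CPM) and above them at 24 h (260.8 and 240.6 against 194.7 and 207.9 CPM). The change of the KO effect passed in 15 of 20 alternatives, over a range of 0.41 to 0.74. It was lost without WT replicate 1 or KO replicate 2 of 0 h, without either WT library of 24 h and without KO replicate 1 of 24 h. The cause was not tested.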

How the results depend on the processing

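Of 31 member calls, 16 passed in every alternative that gave a value, and 15 were lost in at least 1. Ifng, Csf2 and Lif at 24 h were among the former. The number of members that passed in KO against WT at 0 h was 2 with DESeq2, 2 with no filter, 2 with the replicate block, 2 without the KO libraries numbered 1, 0 without those numbered 2, 0 with only the groups compared, and 0 to 2 without single libraries. At 8 h it was 0 to 2 and at 24 h 3 to 5 without single libraries, and 3 with DESeq2 at 24 h. For KO 24 h against 8 h it was 3 without the KO libraries of either number and 2 to 7 without single libraries. For the shift of the KO effect between 8 h and 24 h it was 1 with no filter and 1 with only the groups compared. For that between 0 h and 24 h it was 2 with no filter, 2 without the KO libraries of either number, and 0 to 2 without single libraries. The cause was not tested.

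Without single libraries the log2 fold change of KO against WT at 0 h ran from -4.17 to 0.32 for Csf2, from -0.37 to 0.77 for Il4 and from -0.49 to 0.04 for Tnf, and at 8 h from -1.67 to 2.26 for Il3. It ran from -0.02 to 1.64 for Csf2 in WT 8 h against 0 h, from -0.34 to 0.09 for Ifng in WT 24 h against 8 h, and from -4.0 to 2.29 for the shift of the Ifng KO effect between 0 h and 24 h, which was 1.33 in all libraries. At 0 h Csf2 stood at 0.35 without the KO libraries numbered 1 and Il4 at -0.37 without those numbered 2. Of 1079 alternative values of single members, 945 kept direction and side of the threshold and 11 reversed. Where a library was left out, its lone partner was assumed to vary like the other groups.

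Same-numbered libraries deviated together with r above 0.1 in 8 of 15 pairs of groups, among them all 3 pairs of KO groups (r = 0.111 to 0.288). The 3 pairs of WT groups had r = 0.09 to 0.22. In KO cells the basophil and mast cell sum was higher in replicate 2 than in replicate 1 at each time. Because not every pair exceeded 0.1, the main fit did not take the numbers as pairs. The 15 pairs include those of a WT with a KO group, which cannot show whether numbers are paired within a genotype. The replicate block was a single term shared by WT and KO libraries. Pairing of the times within each genotype was therefore not fitted. Whether same-numbered libraries share a source was not tested. The member gained at 0 h with the replicate block, with DESeq2 and with no filter was Ifng (log2 fold change 2.23 with the block, adjusted p = 0.0162). With the replicate block, 899 genes were higher and 263 lower at 0 h against 726 and 167 without it, and 469 and 200 at 8 h against 298 and 117. At 8 h DESeq2 called 436 and 233 genes and the fit with no filter 623 and 239, and at 0 h the fit of only the groups compared called 428 and 36. For the shift of the KO effect between 0 h and 8 h, 41 genes were up and 115 down, against 59 and 240 with DESeq2, 133 and 312 with no filter and 11 and 49 with only the groups compared. At this depth Il4, Il13 and Il10 rest on fewer than 20 counts per library.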
